A study of Mus musculus with 52 samples.

Results

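The genes described here encode the enzymes and carriers that take a fatty acid into mitochondria and oxidise it there, 34 of the 21631 protein-coding genes on chromosomes 1 to 19 and X of the mouse assembly GRCm38. They were chosen by name as genes of this pathway, with earlier results of these data known. Each gene stands for its locus, the gene body with 10 kb added on both sides. The 34 loci lie on 15 chromosomes and are 25.2 to 92.8 kb long, with a median of 47.0 kb against 37.3 kb for all loci. Every one of them overlaps the locus of another gene, and 6 share ground with another of the 34 (Hadha with Hadhb, Acad10 with Acad12, Ucp2 with Ucp3), so a peak is tied to a gene by position alone.

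The study immunoprecipitated chromatin from brown adipose tissue, the heat-producing fat of mice, kept at room temperature (RT) or put in the cold for 4 h. PPARG was profiled in WT mice with its own antibody (3 libraries at RT and 3 in cold), and so was ERR1 (1 library at each temperature). An antibody to the tag of a knock-in allele served for the remaining factors: PPARA in HA-PPARA KI mice (2 at RT, 3 in cold), PGC1A in PGC1A-HIsHA KI mice (3 in cold), CEBPA in HA-CEBPA KI mice (3 at RT) and CEBPB in HA-CEBPB KI mice (2 in cold). H3K27ac is a histone acetylation found at promoters and enhancers in use, and was mapped in WT mice (the WT cohort, 3 at RT and 3 in cold) and in mice labelled TXNIP WT and TXNIP KO (2 of each at each temperature). The labels name no strain, age or sex, nor the part of Txnip deleted. The third PGC1A library carries the genotype label HA-CEBPA KI, against its title, so counts of PGC1A genes and sites are given with and without it, while covered lengths and folds are over the 3 libraries.

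Fatty acids are first joined to coenzyme A by acyl-CoA synthetases, then carried over the inner mitochondrial membrane as carnitine esters. Inside, each turn of beta-oxidation shortens the chain through a dehydrogenase, a hydratase, a second dehydrogenase and a thiolase, and electrons pass through the electron transfer flavoprotein to the respiratory chain. In brown fat this pathway fuels uncoupled respiration. PPARA and PPARG are fatty acid-sensing nuclear receptors that bind DNA with a retinoid X receptor, ERR1 is an orphan nuclear receptor, and PGC1A is a cold-induced coactivator that docks on such receptors and does not bind DNA by itself. CEBPA and CEBPB are leucine zipper factors of adipocyte differentiation.

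The gene starts carry much of the binding described here, so the 250 bases before the annotated start are shown for 5 of the genes. Acadm and Etfdh hold peaks of every nuclear receptor and of PGC1A at the start, Hadha shares its start region with the divergent Hadhb, and Acads and Acsl6 hold a match to a searched motif, in capitals. Sequences are from RefSeq on GRCm38.p6, written 5′ to 3′ on the gene's strand.
Acadm (chr3:153944644-153944893, minus strand): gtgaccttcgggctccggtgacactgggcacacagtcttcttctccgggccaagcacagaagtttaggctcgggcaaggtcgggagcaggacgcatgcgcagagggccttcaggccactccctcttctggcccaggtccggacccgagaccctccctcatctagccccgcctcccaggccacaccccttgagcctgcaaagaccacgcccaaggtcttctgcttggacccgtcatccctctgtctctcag
Etfdh (chr3:79628768-79629017, minus strand): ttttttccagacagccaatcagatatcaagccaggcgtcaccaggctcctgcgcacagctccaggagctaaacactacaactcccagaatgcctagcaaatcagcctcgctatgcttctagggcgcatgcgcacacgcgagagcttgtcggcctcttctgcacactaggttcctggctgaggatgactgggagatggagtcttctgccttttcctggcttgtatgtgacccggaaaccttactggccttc
Hadha (chr5:30154981-30155230, minus strand): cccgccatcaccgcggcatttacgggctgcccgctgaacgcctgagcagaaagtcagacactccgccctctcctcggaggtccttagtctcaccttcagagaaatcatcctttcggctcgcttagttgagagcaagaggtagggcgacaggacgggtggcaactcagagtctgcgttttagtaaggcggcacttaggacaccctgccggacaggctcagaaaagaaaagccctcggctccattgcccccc
Acads (chr5:115119347-115119596, minus strand): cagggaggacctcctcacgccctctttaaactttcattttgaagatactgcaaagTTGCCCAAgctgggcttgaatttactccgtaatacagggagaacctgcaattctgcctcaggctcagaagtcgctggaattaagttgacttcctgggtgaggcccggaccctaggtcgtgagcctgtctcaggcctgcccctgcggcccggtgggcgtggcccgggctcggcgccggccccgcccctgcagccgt
Acsl6 (chr11:54303574-54303823, plus strand): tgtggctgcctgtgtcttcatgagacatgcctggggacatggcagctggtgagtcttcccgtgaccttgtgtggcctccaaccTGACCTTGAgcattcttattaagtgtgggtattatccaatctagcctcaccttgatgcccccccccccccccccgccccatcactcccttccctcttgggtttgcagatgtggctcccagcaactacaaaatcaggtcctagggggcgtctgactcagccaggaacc
RefSeq windows, which also take in 50 bases after the start, were matched for 30 of the 34 genes, all but Acad9, Decr1, Cpt1b and Acaa2. Both strands were searched for a receptor direct repeat (AGGTCA, any base, AGGTCA), an extended ERR core (TCAAGGTCA) and a C/EBP core (TTGCNNAA), and no motif overlapped another. No window of the 30 genes held the direct repeat, which 0.0579% of all 17274 genes with a window held. The ERR core occurred at 1 gene, Acsl6 (on the minus strand at −167), against 0.382% of all genes. The C/EBP core occurred at 3 genes (Acads, Acadsb and Gcdh), or 10.0%, against 11.8%. These are matches of letters in a short window, and they were not tested as binding sites.

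Most of the 34 genes had a site of each factor. A gene counts as holding a site when a peak overlapped its locus in at least 2 libraries of a group, or in the only library for ERR1. PPARG sites were found at 33 genes at RT and at 33 in cold, each 97.1%. For all genes whose locus length lay within 10% of a member's, the mean shares were 72.5% and 69.6%. ERR1 sites were found at 31 genes (91.2% against 42.3%) at RT and at all 34 (100% against 68.6%) in cold. CEBPA sites at RT were found at 31 genes (91.2% against 50.9%) and CEBPB sites in cold at 30 (88.2% against 51.2%). H3K27ac peaks were found at 33 genes (97.1%) in each of its 6 groups, where genes of like length reached 73.2% to 76.8%. The one gene without them was Acsl6, a synthetase best known from brain.

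**Figure D1:**
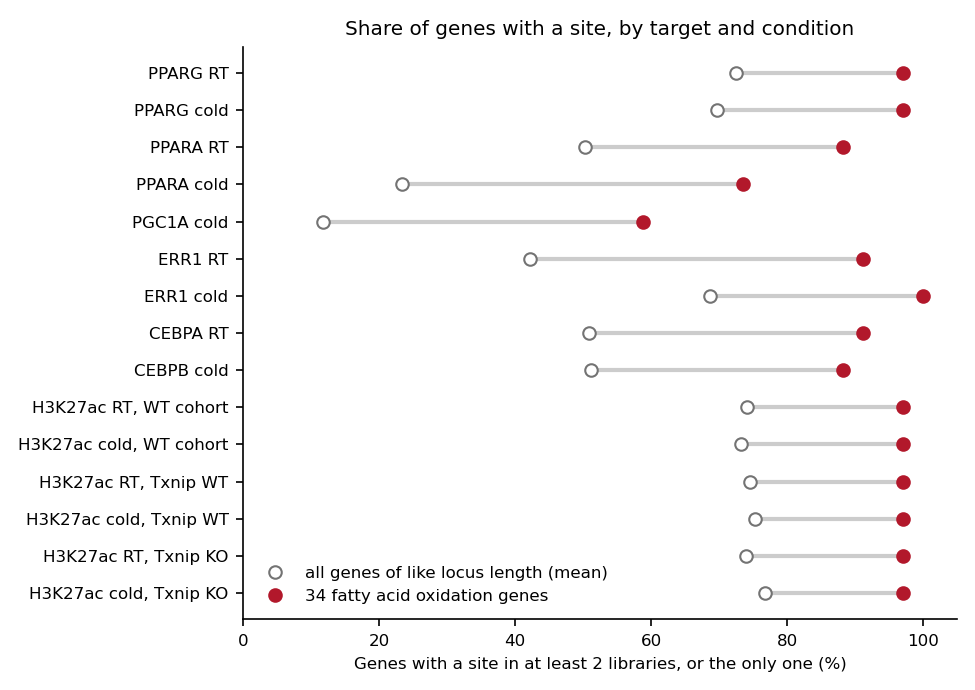
Share of the 34 fatty acid oxidation genes with a site (filled points) and the mean share of all genes of like locus length (open points), in percent on the horizontal axis, for each target and condition. The filled point lies to the right of the open one in every row, by the widest margins for PPARA in cold, ERR1 at RT and PGC1A, where 58.8% stands against 11.8%.

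PPARA and PGC1A were the factors that set the genes apart from each other. PPARA sites were found at 30 genes (88.2% against 50.3% for genes of like length) at RT and at 25 (73.5% against 23.3%) in cold. PGC1A sites in cold were found at 20 genes (58.8% against 11.8%), and at 17 (8.71% for like length) without the library with the conflicting label. The 5 enzymes of hydration, second oxidation and thiolysis (Hadha, Hadhb, Hadh, Echs1 and Acaa2) all held PGC1A and PPARA sites in cold. Among the 8 genes grouped here as acyl-CoA dehydrogenases 5 held PGC1A sites, the very long- to short-chain enzymes Acadvl, Acadl, Acadm and Acads among them. Of the 4 dehydrogenases of branched-chain and amino acid breakdown only Ivd, the isovaleryl-CoA enzyme, held PGC1A and PPARA sites in cold, and Acadsb, Acad8 and Gcdh held neither. PGC1A sites were found at 2 of 5 synthetases (Acsl1 and Acsl5), 2 of 4 carnitine shuttle genes (Cpt1b and Cpt2), 2 of 3 auxiliary enzymes (Eci1 and Decr1), 2 of 3 electron transfer genes (Etfa and Etfdh), and at Ucp3 but not Ucp2. Without the library with the conflicting label Acsl5, Cpt2 and Decr1 dropped out and the counts of the other steps stayed as given.

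The liver-type carnitine palmitoyltransferase Cpt1a and the muscle-type Cpt1b, which make the same rate-controlling step, differed in PGC1A peaks. PGC1A peaks covered 2.60, 1.96 and 2.32 kb of the Cpt1b locus (gene body chr15:89416405-89425862) in the 3 libraries. No PGC1A library had a peak at Cpt1a (chr19:3322326-3385735). PPARA covered 6.59 and 4.93 kb of the Cpt1b locus at RT and 3.36, 1.66 and 2.19 kb in cold. At Cpt1a the same libraries covered 3.07 and 3.68 kb at RT and 1.66, 0.953 and 0.610 kb in cold, so both genes held PPARA sites at both temperatures. ERR1 covered 2.44 kb of the Cpt1b locus at RT and 6.15 kb in cold, and 0.348 and 3.45 kb of the Cpt1a locus. Cpt1b is a gene of skeletal muscle as well, so muscle markers bear on it. Of 10 such markers 5 held PPARG sites at each temperature, 4 held PPARA sites at RT and 1 in cold, and 1 to 4 held H3K27ac sites in each group. Ckm, Myh1, Myh4 and Myod1 had no peak in any of these libraries, and none of the 10 had a PGC1A peak. The part of muscle in the results at Cpt1b was not tested. All 8 brown adipocyte markers held H3K27ac and PPARG sites at both temperatures and PPARA sites at RT. In cold 7 of the 8 held PPARA sites, all but Dio2.

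All 6 factors had sites at 19 of the 34 genes (55.9%), against 9.48% of genes of like length and 8.97% of all loci, and at 16 (7.11% for like length) without the library with the conflicting label. Each of the 30 merged PGC1A sites in these loci overlapped an ERR1 site and an H3K27ac site, 29 overlapped a PPARG site and 29 a PPARA site. For PGC1A sites over the genome the shares on ERR1, PPARG and PPARA sites were 99.0%, 96.0% and 82.3%. Fewer of the 30 lay on C/EBP sites, 20 on CEBPA (66.7%, against 70.5% over the genome) and 18 on CEBPB (60%, against 68.7%). Without the library with the conflicting label 26 PGC1A sites were left, of which 26 overlapped ERR1, 25 PPARG, 25 PPARA, 19 CEBPA and 17 CEBPB sites. Seen from the 118 PPARG sites of these loci, 22.9% overlapped PGC1A against 5.14% over the genome, 55.1% overlapped PPARA against 38.7%, and 74.6% overlapped ERR1 against 53.0%. The 34 loci together span 1.70 Mb and took up 1.19% to 1.43% of the length covered by peaks in the PGC1A libraries. The same loci took up 0.401% to 0.442% in PPARG and 0.338% to 0.396% in CEBPA and CEBPB libraries.

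Other parts of the fuel supply showed a related but not equal picture. In cold, PGC1A sites were found at 10 of 17 genes of fuel delivery and carnitine carriage, 9 of 10 regulators, 12 of 17 tricarboxylic acid cycle genes and 3 of 15 genes of peroxisomal oxidation, the pathway that shortens very long chains outside mitochondria. Without the library with the conflicting label these counts were 9, 7, 10 and 2. PPARA sites in cold were found at 14 of 17, 8 of 10, 8 of 17 and 10 of 15 of these genes. ERR1 at RT reached 16 of 17, 10 of 10, 17 of 17 and 10 of 15. The differences between these lists were not tested.

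At the gene starts the share with a peak was above that of all genes for every factor, which is a description with no test. A PPARG peak in cold reached the window from 250 bases before to 50 after the start of 29 of the 30 genes (96.7%), against 42.1% of all genes with a window. For ERR1 these shares were 66.7% against 14.6% at RT and 90.0% against 34.3% in cold. For PPARA they were 76.7% against 22.6% at RT and 40.0% against 5.16% in cold. For PGC1A 10 of 30 genes (33.3%, against 3.12%) had such a peak: Acsl1, Acadvl, Acadl, Acadm, Acads, Hadha, Hadhb, Echs1, Etfa and Etfdh. Without the library with the conflicting label there were 7 (2.22% of all genes), all of these but Acsl1, Acadvl and Etfa. CEBPA reached 20 of 30 starts (66.7% against 17%) and CEBPB 9 (30% against 12.9%).

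**Figure D2:**
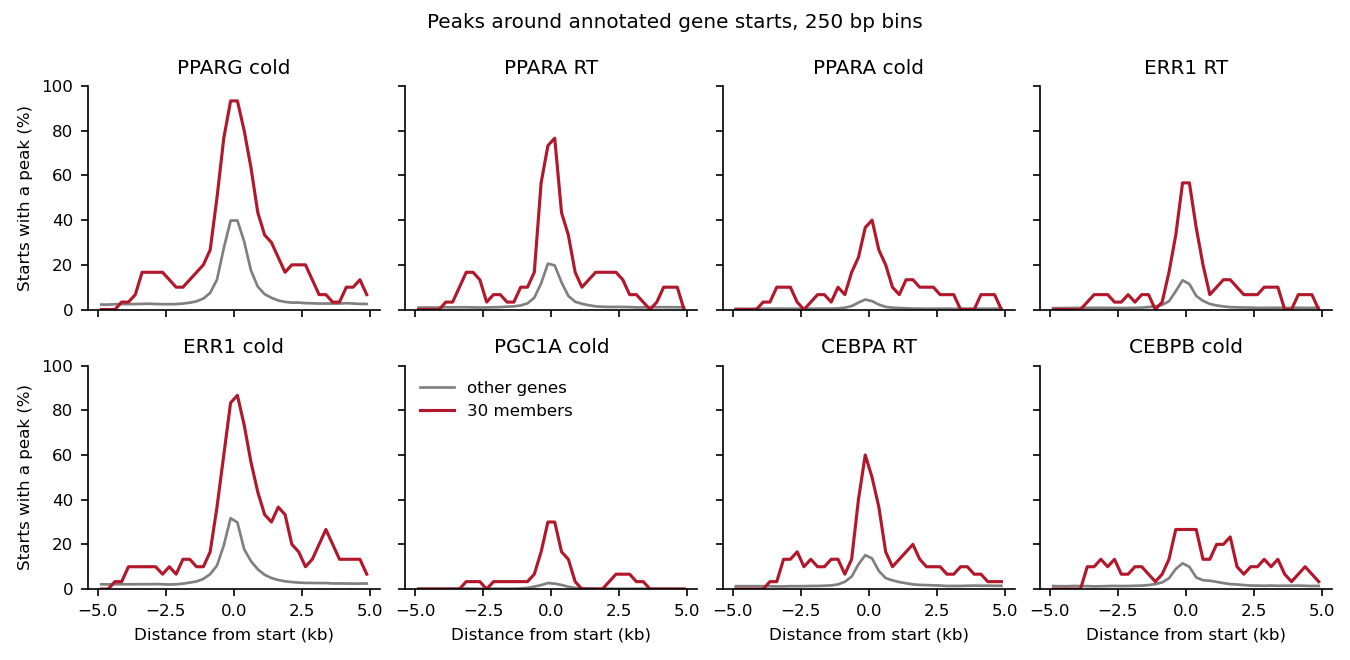
Share of gene starts with a peak (percent) in 250 bp bins from 5 kb before to 5 kb after the start, for the 30 members with a RefSeq window (red) and other genes (grey), by target. Both curves are highest next to the start, and the red maxima are 93.3% for PPARG in cold, 76.7% and 40.0% for PPARA at RT and in cold, 86.7% for ERR1 in cold and 30% for PGC1A.

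The strongest PGC1A site of the 34 loci, by the authors' fold enrichment within each list, lay at the start of Acadm, the medium-chain acyl-CoA dehydrogenase (gene body chr3:153922353-153944643). It spanned chr3:153944411-153945193 over the 3 libraries, with deposited folds of 36.9 to 48.1, at or above the percentile of 99.6 in each list. The Acadm sequence above falls inside this site. On the same start lay a PPARG site (chr3:153943874-153945832, deposited folds of 48.2 to 67.8 at RT and 66.8 to 75.5 in cold), a PPARA site (26.2 to 28.9 and 21 to 30.8) and an ERR1 site (30.2 and 85.8). The folds belong to each list by itself and show no change between lists. CEBPA was weak there, at 3.3 to 4.3.

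Strong PGC1A sites were not all at starts. Hadh, the 3-hydroxyacyl-CoA dehydrogenase of medium and short chains, held its PGC1A site at chr3:131245868-131247137, 25.6 kb from the start, with deposited folds of 16.9 to 18.6. Cpt1b held 3 PGC1A sites, of which chr15:89425300-89426298 at the start reached 11.6 to 14.4. The locus of Echs1, the short-chain enoyl-CoA hydratase, held a PGC1A site at chr7:140101978-140102554 (14.2 to 17.5). That site lay outside the gene body (chr7:140105710-140116421), in a locus that also holds Prap1, Fuom and Paox. Etfa, a subunit of the electron transfer flavoprotein, held a PGC1A site at chr9:55511461-55512349 (14 to 17.1). The divergent pair Hadha and Hadhb, both subunits of the trifunctional protein, shared a site between them at chr5:30154823-30155365 (7.96 to 10.6). At Etfdh, whose enzyme hands electrons on to ubiquinone, the start held PGC1A (chr3:79628259-79628987, 6.2 to 8.2), PPARA, PPARG and ERR1 sites.

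The highest PPARG folds of the group lay at other genes than the highest PGC1A fold. Mlycd, malonyl-CoA decarboxylase, which removes the inhibitor of Cpt1, held a PPARG site at chr8:119393972-119395862 with deposited folds of 82.6 to 95.8 at RT and 116 to 155 in cold, and no PGC1A peak. Acaa2, the mitochondrial thiolase, held a PPARG site with folds of 95.6 to 115 and 122 to 146, and PGC1A peaks covered 0.692 to 0.783 kb of its locus. Etfb, the partner subunit of Etfa, held a PPARG site at chr7:43442995-43446675 (76.8 to 92.9 and 85.0 to 111), while a PGC1A peak of 0.295 kb was listed in 1 of 3 libraries. Strong C/EBP sites lay at Acsl1, the main long-chain synthetase of adipose tissue (CEBPB, chr8:46484634-46485536, 38.9 to 69.2), and at Ivd (CEBPB, chr2:118882214-118883719, 61.2 to 67.4).

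ERR1 had 1 library at each temperature, so no test was possible. The cold list was longer for the whole genome, with 45800 peaks against 16020, and the 34 loci took up 0.555% of its covered length against 0.613% at RT. Of 204 merged ERR1 sites in these loci 127 (62.3%) were in the cold list alone, where the genome had 66.7%. Acad9, Acsl4 and Ucp2 were the genes with an ERR1 peak in cold and none at RT (0.557, 0.434 and 1.15 kb). These values describe a pair of libraries and not a change with cold.

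Cold against RT was tested where both temperatures had replicates. The measure is the length of a locus covered by peaks, scaled to each library's total covered length, on the log2 scale after adding 500 bp. It was fitted with limma over all loci with peaks in at least 2 libraries (in at least 3 for PPARG), and a gene is called at a Benjamini-Hochberg adjusted p under 0.05. The labels do not say that replicates came from separate animals, so p-values measure only the spread between these samples. Library totals differed between temperatures: 31.3 to 39.3 Mb at RT and 23.8 to 29.5 Mb in cold for PPARG, and 13.7 to 16.1 Mb at RT and 3.32 to 5.72 Mb in cold for PPARA.

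Few PPARG differences between RT and cold were called at these genes. Of the 33 genes tested (Acsl4 had too few peaks) 2 were called higher and 1 lower, while 10.2% of all loci tested were called (5.04% higher and 5.13% lower). The median log2 difference of the 33 was 0.03 and that of all loci tested 0.03. At an unadjusted p under 0.05 there were 6 of the 33 (18.2%), against 26.3% of all loci. All 33 genes with a PPARG site at RT kept one in cold, against 92.8% of all loci. By sites, 4 of 159 (2.52%, against 5.27% over the genome) had a peak in every RT library and in no cold one, and they lay at Acsl1 (2 sites), Acad8 and Echs1. Scaled values of 7 of the 33 genes were higher in every cold library than in every RT library (17.8% of loci) and those of 2 lower (14% of loci).

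The uncoupling protein relatives and Acsl1 made up the 3 PPARG calls. Ucp3, a mitochondrial carrier of muscle and brown fat (gene body chr7:100472991-100486432), had 7.54, 6.89 and 6.97 kb of scaled PPARG coverage at RT and 10.1, 9.26 and 8.67 kb in cold, and the groups did not overlap. The log2 difference was 0.37 ± 0.09 (SE, limma adjusted p = 0.038, n = 3 and 3). The adjoining Ucp2 (chr7:100493337-100499629), a carrier expressed in many tissues, had 2.19, 1.94 and 1.57 kb at RT and 3.76, 3.67 and 2.89 kb in cold, and its PPARG site at chr7:100495077-100496205 was in 1 of 3 RT lists and in 3 of 3 cold lists. Its log2 difference was 0.71 ± 0.15 (limma adjusted p = 0.024). The loci of Ucp2 and Ucp3 overlap, so these are not separate results. Acsl1 (chr8:46471037-46536051) had 12.0, 10.7 and 12.4 kb at RT and 9.24, 9.14 and 9.54 kb in cold, and fell by 0.31 ± 0.08 on the log2 scale (limma adjusted p = 0.045). No gene was called without any 1 RT library or without cold replicate 1 or 2, and 1 (Ucp2) was called without cold replicate 3. Without scaling, where the median of all loci was −0.22, Ucp2 was at 0.43 and Ucp3 at 0.05, both not called.

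Markers of some other cell types moved in the same libraries. Of 9 endothelial markers tested 8 were called higher for PPARG in cold. The summed scaled coverage of the 10 endothelial markers was 29.7 to 31.7 kb at RT and 59.5 to 62.6 kb in cold. The 10 skeletal muscle markers summed to 3.37 to 4.64 kb at RT and 2.79 to 5.21 kb in cold, so the temperatures overlapped. Among them Tnni2 was called lower (−0.98). The 6 fibroblast and preadipocyte markers summed to 5.31 to 6.44 kb at RT and 7.77 to 9.27 kb in cold. Brown adipocyte markers summed to 81.6 to 91.5 kb at RT and 76.9 to 82.4 kb in cold. The part of these shifts in the PPARG results at Ucp2, Ucp3 and Acsl1 was not tested. In a whole tissue, a changed share of cells of a type and changed binding within those cells cannot be told apart.

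PPARA peaks were fewer after cold in the whole genome, and the fatty acid oxidation genes were among those that kept them. Of the 30 genes with a PPARA site at RT 25 (83.3%) kept one in cold, against 46.9% of all loci and 45% of those of like length. With lists cut to equal length it was 24 of 24, against 81.3% of all loci. The 34 loci took up 0.475% and 0.531% of the covered length at RT and 0.797% to 0.880% in cold, so these groups of libraries did not overlap. By sites, 16 of 120 (13.3%, against 24.1% over the genome) were in both RT lists and in no cold list, and 30.8% against 11.6% were in every list of both temperatures. A site near Mlycd (chr8:119427321-119428457), named after its values were seen, had deposited folds of 54.9 to 66.2 in the RT lists and 5.47 to 7.04 in the cold lists.

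Relative to the shorter cold lists, 8 of the 30 genes tested were called higher and 4 lower, while 35.3% of all loci tested were called (4.21% higher and 31.1% lower); without scaling all 30 differences were negative. The 4 untested genes were Acsl6, Acadsb, Acad8 and Ucp2, with too few PPARA peaks. The 4 called lower (Acsl4, Acad9, Acad10 and Gcdh) had PPARA peaks in both RT libraries and in no cold one. They entered the test through RT alone, so it could only find them lower, and the same filter applied to all loci. The median log2 difference of the 30 was 0.54 with scaling, where all loci tested stood at −0.44. Without scaling it was −0.81 against −1.09, with 0 genes called higher and 17 lower. With lists cut to equal length it was 0.03 against −0.04 and 1 gene, Etfb, was called, lower. The direction at these genes is therefore relative to the rest of the library: their covered length shrank less than that of most loci, and did not grow. Neither direction was called for any gene when 1 RT library was left out, which leaves a single RT sample whose spread is taken from the cold group.

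Genes of several steps were among the 8 called higher with scaling. Acsl1 had 2.7 and 3.3 kb of scaled PPARA coverage at RT and 5.78, 6.38 and 6.28 kb in cold, a log2 difference of 0.93 ± 0.13 (limma adjusted p = 0.0052), but in deposited length it had 5.14 and 5.35 kb at RT and 3.91, 2.6 and 2.46 kb in cold. Etfdh had 0.549 and 0.629 kb at RT and 1.45, 2.17 and 1.74 kb in cold, a log2 difference of 1.06 ± 0.21 (limma adjusted p = 0.017). In deposited length Etfdh had 1.05 and 1.02 kb at RT and 0.981, 0.884 and 0.681 kb in cold, the smallest unscaled loss of the 8 at −0.19. Hadhb, the thiolase-bearing subunit of the trifunctional protein, had 2.96 and 3.44 kb at RT and 6.6, 6.10 and 5.02 kb in cold (0.79 ± 0.16, limma adjusted p = 0.018). Without scaling Hadhb stood at −0.88, and each of the 8 genes turned negative in the same way.

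The other genes called higher with scaling, and negative without it, were Acadl, the long-chain dehydrogenase (0.77), Hadh (0.87), Echs1 (0.80), Eci1, an isomerase for unsaturated chains (0.89), and Ucp3 (0.94). Their limma adjusted p lay between 0.023 and 0.039. Scaled values of 17 of the 30 genes were higher in every cold library than in every RT library, against 14.1% of loci, and those of 4 were lower in every cold library, against 39.6%, but the counts share the scaling just described. Cpt1a, with 1.61 and 2.27 kb at RT and 2.45, 2.34 and 1.55 kb in cold, overlapped between temperatures, and so did Acadm with 1.58 and 1.84 kb against 1.83, 3.34 and 2.67 kb. The 4 genes called lower, the same 4 that were lower in every cold library, had no PPARA peak in any cold library. They passed the filter through the RT libraries alone, which fixed their direction in advance. Acad10, a member of the acyl-CoA dehydrogenase family, had 1.20 and 1.54 kb of deposited coverage at RT, and Acsl4, Acad9 and Gcdh each had 0.309 to 0.393 kb, a short peak in both RT lists.

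**Figure D3:**
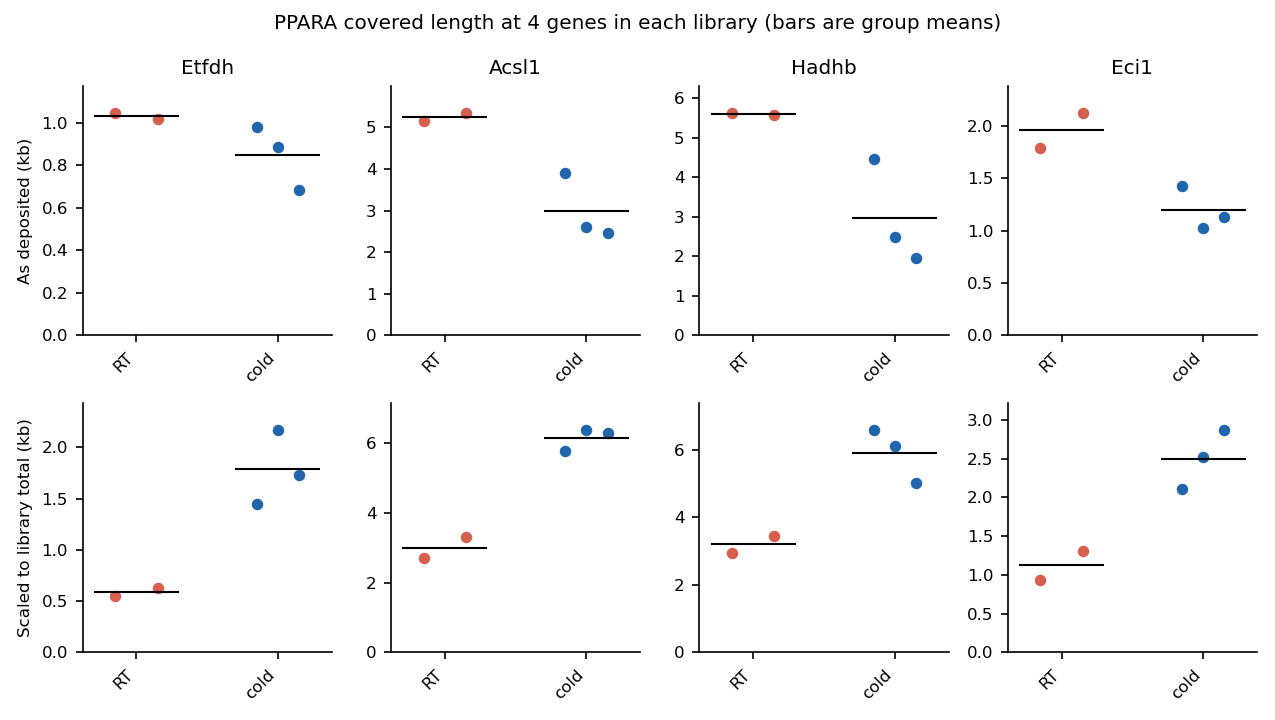
PPARA-covered length in kb at Etfdh, Acsl1, Hadhb and Eci1, a point per library and a bar per group mean (2 libraries at RT, 3 in cold), as deposited (upper row) and scaled to the library's total covered length (lower row). The cold points lie below the RT points in the upper row and above them in the lower row, as with Acsl1 (5.35 kb highest at RT and 3.91 kb highest in cold as deposited, 3.30 and 6.38 kb scaled).

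Among other genes of fuel supply the scaled PPARA coverage was called higher at Crat, Cd36 and Slc25a20 (3 of 16 tested) and at the regulators Pdk4, Ppargc1a and Klf15 (3 of 10). Of 14 peroxisomal genes tested 1 was called higher (Scp2, 0.66) and 3 lower (Crot, −1.35; Acox3, −1.28; Decr2, −0.76). Of 16 tricarboxylic acid cycle genes 2 were called higher and 1 lower. For PPARG the lipid uptake genes Cd36 (0.34) and Fabp4 (0.41) were called higher, and Acox3 (−0.44), Sucla2 (−0.81), Suclg1 (−0.57) and the regulator Ppargc1b (−0.36) lower. Endothelial markers were near 0 for PPARA, with 0 to 1.57 kb of summed scaled coverage in the cold libraries and 1.53 to 1.55 kb at RT.

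H3K27ac gave a mixed picture over 3 cohorts, with Etfdh the gene called in all 3. In the WT cohort Etfdh had 3.4, 3.3 and 2.73 kb of scaled coverage at RT and 4.56, 4.09 and 4.29 kb in cold, a log2 difference of 0.41 ± 0.10 (limma adjusted p = 0.021). In TXNIP WT mice it had 2.32 and 2.36 kb at RT and 4.08 and 3.55 kb in cold (0.60 ± 0.12, limma adjusted p = 0.014). In TXNIP KO mice it had 2.49 and 2.60 kb at RT and 4.74 and 3.91 kb in cold (0.66 ± 0.12, limma adjusted p = 0.0070). In each cohort every cold library stood above every RT library. With 50 kb flanks Etfdh was called in none of the 3. In the WT cohort the call was also lost without scaling and without RT replicate 3, cold replicate 1 or cold replicate 3. In TXNIP WT mice it was lost without RT replicate 1, RT replicate 2 or cold replicate 1, and in TXNIP KO mice without RT replicate 1 or cold replicate 1. The locus of Etfdh also holds Ppid and 4930579G24Rik, so the change is one of the locus.

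The rise at Etfdh lay in part at a new stretch inside the gene body (chr3:79603788-79628767). An H3K27ac site at chr3:79623048-79623584 was in 0 of 3 RT lists and 3 of 3 cold lists of the WT cohort, with deposited folds of 3.54 to 3.84. In the TXNIP cohorts a site at chr3:79622641-79624217 was in 0 of 4 RT lists and 4 of 4 cold lists (3.56 to 5.49). An ERR1 peak at chr3:79623129-79623450, 5.48 kb from the start, was in the cold list and not in the RT list (10.2). The overlap of these stretches was noticed after the values were seen. Over the genome such gained H3K27ac sites were 1.14% in the WT cohort and 2.08% in the TXNIP cohorts, and at the 34 loci they were 1 of 239 (0.418%) and 5 of 185 (2.70%).

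In the WT cohort the other calls went down. Of 33 genes tested 1 was called higher and 4 lower, while 11.9% of all loci were called (5.39% higher and 6.55% lower). The median of the 33 was −0.18, against 0.03 for all loci. Eci1 (chr17:24426683-24439316) had 16.3, 16.5 and 14.8 kb at RT and 12.3, 8.97 and 9.98 kb in cold, and fell by 0.60 ± 0.12 on the log2 scale (limma adjusted p = 0.0074). Acads, the short-chain dehydrogenase, had 8.21, 7.28 and 7.75 kb at RT and 6.12, 4.92 and 5.38 kb in cold, and fell by 0.47 ± 0.10 (limma adjusted p = 0.015). With 50 kb flanks Acads was called higher instead. Acad10 fell by 0.52 and Eci2, a second enoyl-CoA isomerase, by 0.58. No value of these 4 genes overlapped between RT and cold, and 9 of 239 sites (3.77%, against 2.43% over the genome) were in every RT list and in no cold one. Without scaling 3 genes were called, all lower (Acad10, Hadha and Eci1), and without single libraries between 2 and 7 were (2 without RT replicate 1, cold replicate 2 or cold replicate 3). Over all 33 genes, 3 were higher in every cold library than in every RT library (17% of loci) and 9 lower (12.9%).

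The same 4 genes in the TXNIP cohorts were not called. Acads had 7.26 and 6.90 kb at RT and 5.92 and 5.25 kb in cold in TXNIP WT mice, and 6.35 and 6.98 kb against 5.52 and 4.30 kb in TXNIP KO mice, so its groups did not overlap in either. Eci1 overlapped in TXNIP WT mice, with 11.7 and 15 kb at RT and 12.4 and 11.3 kb in cold, but not in TXNIP KO mice, with 13.1 and 13.7 kb at RT and 11.6 and 11.3 kb in cold. Eci2 was lower without overlap in TXNIP WT mice, with 4.64 and 4.64 kb at RT and 3.13 and 2.82 kb in cold, and overlapped in TXNIP KO mice. Acad10 lay the other way, at 5.64 and 6.19 kb against 7.43 and 7.32 kb in TXNIP WT mice. The cold responses of the WT cohort and TXNIP WT mice were compared in a test added after the data were seen, and no gene passed. The lowest limma adjusted p was 0.0502, at Acadvl, with 7 of 33 genes (21.2%) at an unadjusted p under 0.05, against 14.8% of loci. By adjusted p, 0.224% of all loci were called. Without RT replicate 3 of the WT cohort 3 genes were called, and without its cold replicate 1 there were 2.

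In TXNIP WT mice 3 genes were called higher and none lower, while 6.92% of all loci were called (4.54% higher and 2.39% lower). Acadvl, the very long-chain dehydrogenase (chr11:70010183-70015428), had 5.04 and 5.15 kb at RT and 7.97 and 7.94 kb in cold, a log2 difference of 0.60 ± 0.08 (limma adjusted p = 0.0021), and stayed called in each of its 15 alternative settings. Ucp2 had 4.78 and 4.95 kb at RT and 6.51 and 7.12 kb in cold (0.45 ± 0.11, limma adjusted p = 0.031). Etfdh, given above, was the third. Without RT replicate 1, RT replicate 2 or cold replicate 1 only 1 gene, Acadvl, was called. Values of 10 of the 33 genes were higher in both cold libraries than in both RT libraries (28.1% of loci) and those of 4 lower (23.9%). In the WT cohort Acadvl had 7.27, 7.84 and 7.46 kb at RT and 7.56, 7.89 and 7.86 kb in cold, and the 2 temperatures overlapped.

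In TXNIP KO mice Acadvl and Etfdh were called higher and no gene lower, while 14.2% of all loci were called (7.73% higher and 6.49% lower). Acadvl had 5.98 and 6.39 kb at RT and 8.16 and 8.64 kb in cold (0.41 ± 0.08, limma adjusted p = 0.0076). In these mice Acadvl was not called over the gene body alone or with 50 kb flanks. The locus of Acadvl also holds Dvl2 and Dlg4. Library totals rose with cold in these mice, from 73.2 to 87.6 Mb at RT to 102 to 108 Mb. Without scaling 15 genes were called higher, with the median of all loci at 0.30 and that of the 33 genes at 0.40. The share of all loci called without scaling is not given here, so the 15 are not set against it. Without RT replicate 1 no gene was called. Values of 11 genes were higher in both cold libraries than in both RT libraries (25% of loci) and those of 11 lower (33.8%). Endothelial markers summed to 273 to 284 kb at RT and 218 to 235 kb in cold in these mice, and to 228 to 281 kb and 309 to 348 kb in the WT cohort. In TXNIP KO mice brown adipocyte markers summed to 271 to 288 kb at RT and 238 to 245 kb in cold, and fibroblast and preadipocyte markers to 17 to 22.2 kb and 23.4 to 24.9 kb. Macrophage and lymphocyte markers summed to 12.4 to 15.7 kb at RT and 17.6 to 35.3 kb in cold in these mice. Of those markers Cd68 was called higher (0.39). Their part in the H3K27ac results was not tested.

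**Figure D4:**
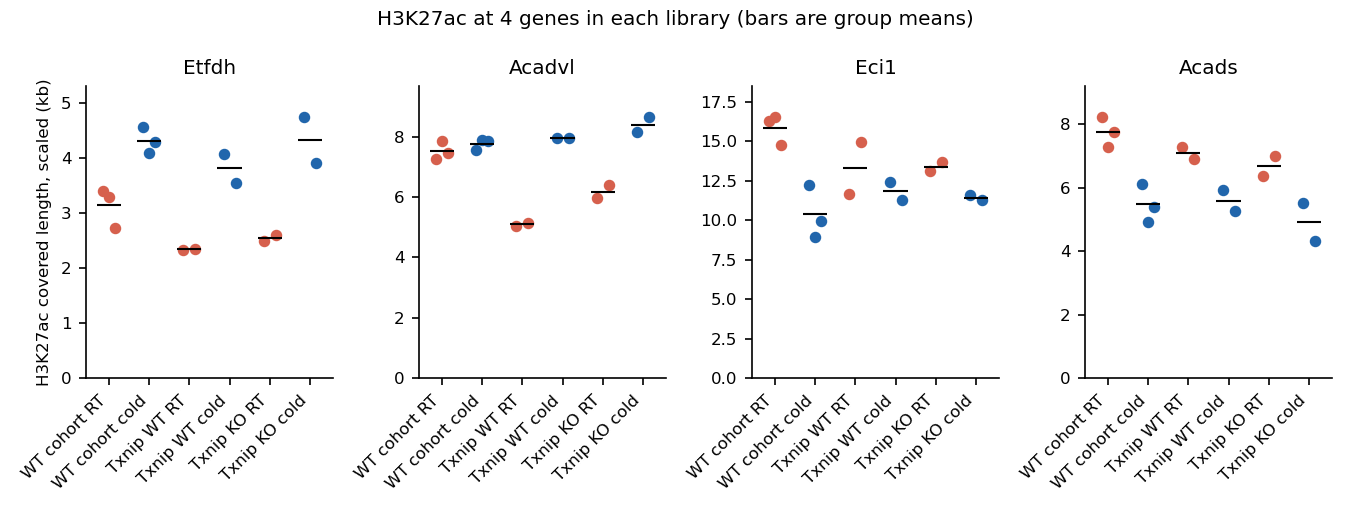
Scaled H3K27ac-covered length in kb at Etfdh, Acadvl, Eci1 and Acads, a point per library (red RT, blue cold) and a bar per group mean, in the WT cohort (3 libraries per group) and in TXNIP WT and TXNIP KO mice (2 per group). Cold points of Etfdh lie above the RT points in each cohort, while at Acadvl this holds for the TXNIP cohorts and the WT cohort overlaps.

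Loss of Txnip, the gene of an inhibitor of glucose uptake, left H3K27ac at these genes without a called difference. H3K27ac peaks at the Txnip locus itself covered 22.6 to 23.4 kb in KO and 21.7 to 22.5 kb in TXNIP WT libraries. This checks nothing about the deletion. Between KO and TXNIP WT mice 0 of 33 genes were called by limma at RT and 0 in cold, with 0.0791% and 0.442% of all loci called. At an unadjusted p under 0.05 there were 2 genes at RT (6.06%, against 7.78% of loci) and 4 in cold (12.1%, against 15.2%). The lowest limma adjusted p was 0.19 at RT (Ucp2) and 0.066 in cold (Etfa, with 10.4 and 9.58 kb in KO and 5.67 and 4.32 kb in TXNIP WT). The difference of cold responses between the genotypes was called at 0 of 33 genes and 0.033% of loci, with 1 gene (3.03%, against 9.31% of loci) at an unadjusted p under 0.05 and a lowest limma adjusted p of 0.41. With 2 libraries per group these values do not show that the genotypes act alike.

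**Figure D5:**
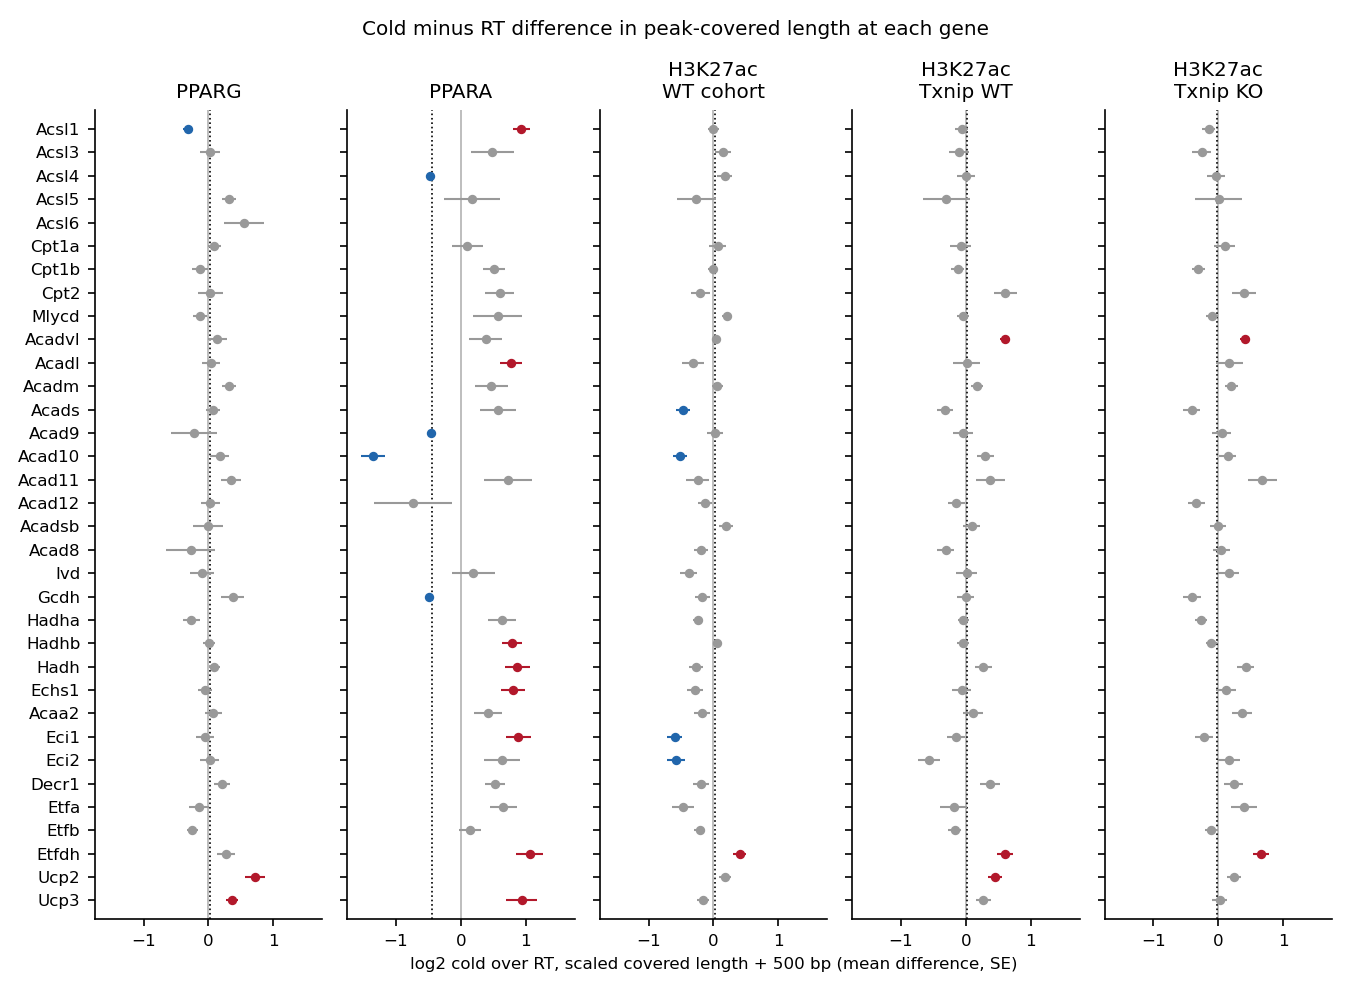
Cold minus RT difference (log2 of scaled covered length plus 500 bp, mean difference and SE) at each gene for PPARG, PPARA and H3K27ac in the 3 cohorts; red is called higher, blue called lower, grey not called, and the dotted line is the median of all loci. PPARG points lie on both sides of the line at 0.03, and those called are Ucp2, Ucp3 and Acsl1. Most PPARA points lie right of the line at −0.44, on a scale that turns negative for every gene without scaling.

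Set side by side, the comparisons did not call the same genes. Etfdh was called higher for H3K27ac in 3 cohorts and for scaled PPARA, and for PPARG it had 1.6, 1.5 and 2.06 kb at RT and 2.16, 2.17 and 2.14 kb in cold, not called (limma adjusted p = 0.27). Acsl1 was called lower for PPARG and higher for scaled PPARA, with H3K27ac of 46.7, 47.5 and 43.6 kb at RT and 50.2, 45.4 and 42.4 kb in cold in the WT cohort, not called. Eci1 was called lower for H3K27ac in the WT cohort and higher for scaled PPARA. As deposited, H3K27ac peaks in cold covered a mean of 64.0% of the locus of Hadhb in the WT cohort (61.8% to 65.3%). The means were 70.0% in TXNIP WT mice (69.6% to 70.4%) and 78.5% in TXNIP KO mice (77.7% to 79.4%). These percentages are not scaled, and library totals in cold were 56.6 to 66.9, 88.0 to 96.9 and 102 to 108 Mb. Scaled values of Hadhb were lower in both KO cold libraries than in both KO RT libraries. Other fuel genes called for H3K27ac included Ppargc1a, higher in the WT cohort, TXNIP WT and TXNIP KO mice (0.70, 1.16 and 0.97), and the peroxisomal oxidase Acox3, lower in all 3 (−0.63, −0.96 and −0.61).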

How the data were processed

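The 35 peak lists were used as deposited, 1 list per library with replicates not pooled, and 17 input samples of the 52 were not analysed here. Per the submitters' processing notes, reads went through MACS2 2.2.7.1, deepTools 3.4.3, SAMtools, BWA 0.7.17 and Trim Galore 0.6.0 (named there in no order) on the build GRCm38.p6. In the deposited lists each peak has a score, a fold enrichment (ratio), a −log10 p-value and a −log10 q-value, all set by the authors within each library. Read depth is unknown from such lists, so no interval for counting error is given, and peak number and covered length stand in for it. PGC1A had 2347 to 3057 peaks per library, PPARA 23589 to 26388 at RT and 7317 to 11107 in cold, PPARG 33272 to 47081, and H3K27ac 37555 to 60204. Tissue for H3K27ac was fixed with formaldehyde alone and for the other targets with DSG and formaldehyde, per the labels' protocols.

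Covered length per locus (an overlap of 1 bp counts) was computed with Python 3.11.15, numpy 2.4.6 and pandas 2.3.3, scaled to the library's total, and fitted with limma 3.58.1 in R 4.3.3 (trended empirical Bayes). The 14 H3K27ac libraries shared 1 fit of 6 groups, and PPARG and PPARA each had their own. The steps were tested on simulated data. Shares of genes of like locus length are descriptions with no test. The members, the gene lists and the tests were chosen with earlier results of these data known. Genes named are those called in a comparison, the genes of each step of the pathway, and sites with the highest deposited folds. The fold belongs to its own list. Same-numbered replicates were not labelled as paired, and their deviations did not go together in every pair. Figures used matplotlib 3.10.9.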

Additional observations from a re-analysis of the deposited data

How the results depend on the processing

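Calls moved with scaling, list length and single libraries. For PPARA without scaling, log2 differences turned to −0.74 (Acsl1), −0.86 (Acadl), −0.88 (Hadhb), −0.76 (Hadh), −0.65 (Echs1), −0.54 (Eci1), −0.19 (Etfdh) and −0.67 (Ucp3). Over the gene body alone, Ucp3 was at −0.088 and Echs1 at −0.33, and with lists of equal length Hadhb was at −0.0044. For H3K27ac in the WT cohort Acads was at 0.20 with 50 kb flanks and was called higher, the reverse of its call in the main setting. The cause was not tested.

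Numbers of genes called were, for PPARG, 0 to 1 without single libraries and 1 with a replicate block. For PPARA they were 1 with lists of equal length, 0 to 12 without single libraries (0 without either RT library) and 14 with a replicate block. For the WT cohort they were 3 without scaling, 9 with 50 kb flanks, 2 to 7 without single libraries (2 without RT replicate 1 or cold replicate 2 or 3) and 7 with the block. For TXNIP WT mice they were 1 to 2 without single libraries and 3 with the block. For TXNIP KO mice they were 15 without scaling, 0 to 3 without single libraries and 3 with the block. KO against TXNIP WT in cold had 1 (Etfa) without scaling and 1 with equal lists. The difference of cold responses between the WT cohort and TXNIP WT mice had 1 with 100 bp added, 1 with no filter and 0 to 3 without single libraries. The block does not rest on a stated pairing: same-numbered libraries correlated at −0.06 to 0.06 for PPARG, −0.05 and −0.02 for PPARA, 0.07 to 0.11 in the WT cohort, −0.14 in TXNIP WT and −0.20 in TXNIP KO mice. With crossed numbers 4 genes were called in TXNIP WT and 3 in TXNIP KO mice. Shares of all loci called under these settings are not given here, so the counts show only how calls at these genes moved.

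With all 35 lists cut to 2347 peaks, genes with a site numbered 8 (CEBPA), 8 (CEBPB), 17 and 16 (ERR1 at RT and in cold), 19 (PPARA at RT), 18 and 20 (PPARG), 15 (H3K27ac in cold, WT cohort), 15 and 11 (TXNIP WT) and 12 and 10 (TXNIP KO); PGC1A had 18 and PPARA in cold 22, and all 6 factors met at 2 genes. For the factors, genes of like length then had sites in 6.37% (CEBPB) to 10.4% (PGC1A) of cases. Starts with a peak numbered 3 (CEBPA, and 13 with stricter peaks), 3 (CEBPB), 10 and 9 (ERR1), 9 (PPARA at RT), 12 and 12 (PPARG), 18 and 13 (H3K27ac, WT cohort), 12 and 9 (TXNIP WT) and 11 and 8 (TXNIP KO).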
